A study of Homo sapiens with 12 samples.

Results

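The NF-kappaB transcription factors and their inhibitors were measured as a group of 10 genes, chosen by gene symbol. The 5 subunits were NFKB1, NFKB2, REL, RELA and RELB, and the 5 inhibitors and related proteins were NFKBIA, NFKBIB, NFKBIE, BCL3 and NFKBIZ. The array carried 20 probe sets for them among 54675, and 10 of the 10 genes were among the 12502 that passed the filter on dim signals. RNA came from 12 samples of human cancer cell lines, on 3 oligonucleotide arrays (HG-U133 Plus 2) in each of 4 groups: 786-O with myoblasts, 786-O alone, PC3 with myoblasts and PC3 alone. 786-O cells come from a renal carcinoma, have no functional VHL and were kept in RPMI1640, while PC3 cells come from a prostate carcinoma and were kept in F-12K, so that line and medium cannot be told apart. In the groups with myoblasts, 10000 primary mouse myoblasts from limbs of 5-day-old C57BL/6-Tg GFP animals sat for 12 h in the top chamber of transwell plates, above 30000 cancer cells seeded 6 h earlier, and RNA was taken from the cancer cells. The labels also call this a 1:1 co-culture, and they do not describe the upper chamber of the wells without myoblasts.

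NF-kappaB is a dimer of subunits that share a Rel domain. The inhibitors of the IkappaB family hold the dimer in the cytoplasm until the IKK kinase marks them for destruction, and the released dimer then enters the nucleus and binds kappaB sites. NFKBIA is itself a target gene and ends the response it belongs to, while BCL3 and NFKBIZ are nuclear IkappaB proteins that bind mainly p50 or p52 dimers and can raise transcription of a subset of inflammatory genes.

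Promoters of the 3 genes that were called in both lines are shown first, since they carry kappaB sequences. Each is a RefSeq window (GRCh38.p14) of 250 bases before to 50 after a gene start, printed 5′ to 3′ on the gene's strand. Capitals mark every match to the 10-base kappaB consensus on either strand.
NFKBIA, chr14:35404700-35404999, minus strand: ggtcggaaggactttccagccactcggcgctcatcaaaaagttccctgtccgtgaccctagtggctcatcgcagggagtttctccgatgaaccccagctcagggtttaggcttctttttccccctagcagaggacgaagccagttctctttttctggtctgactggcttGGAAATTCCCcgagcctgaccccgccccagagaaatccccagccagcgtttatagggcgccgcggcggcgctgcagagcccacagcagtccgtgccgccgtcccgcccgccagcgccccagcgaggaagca
BCL3, chr19:44748458-44748757, plus strand: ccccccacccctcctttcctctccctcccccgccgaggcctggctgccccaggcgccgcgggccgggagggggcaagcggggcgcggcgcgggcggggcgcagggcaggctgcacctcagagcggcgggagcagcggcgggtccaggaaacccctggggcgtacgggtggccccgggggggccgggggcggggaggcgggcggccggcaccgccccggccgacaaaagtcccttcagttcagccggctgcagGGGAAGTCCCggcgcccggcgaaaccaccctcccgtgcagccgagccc
NFKBIZ upstream start, chr3:101827740-101828039, plus strand: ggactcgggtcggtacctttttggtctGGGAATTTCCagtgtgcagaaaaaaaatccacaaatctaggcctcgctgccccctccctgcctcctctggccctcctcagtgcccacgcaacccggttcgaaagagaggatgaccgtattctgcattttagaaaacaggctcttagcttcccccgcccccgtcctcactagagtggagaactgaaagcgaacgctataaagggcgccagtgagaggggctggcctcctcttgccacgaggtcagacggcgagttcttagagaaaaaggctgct
NFKBIZ downstream start, chr3:101849264-101849563, plus strand: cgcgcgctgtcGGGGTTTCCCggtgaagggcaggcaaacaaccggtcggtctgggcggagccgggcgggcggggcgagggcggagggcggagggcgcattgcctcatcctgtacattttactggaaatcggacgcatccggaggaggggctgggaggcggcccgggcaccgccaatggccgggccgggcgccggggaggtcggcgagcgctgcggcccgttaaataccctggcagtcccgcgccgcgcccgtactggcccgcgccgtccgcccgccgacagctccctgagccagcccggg

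The match of NFKBIA began 81 bases before the start and read GGGAATTTCC on the other strand. The same 10 bases began 223 bases before the upstream start of NFKBIZ, on the gene's strand. In BCL3 the match GGGAAGTCCC began 3 bases after the start and fitted the consensus on both strands, as GGGGTTTCCC did 239 bases before the downstream start of NFKBIZ. RefSeq windows were found for 8 of the 10 genes, 14 windows in all, and 9 windows of 7 genes held the consensus, against 11.3% of 35116 windows and 13.3% of 27305 genes over the genome. The match shared by the most member genes, GGGAATTTCC, was present in 5 windows of 5 member genes (NFKB1, REL, NFKBIA, NFKBIB and NFKBIZ), against 0.145% of all windows, and it was picked for being shared. In NFKB1 it began 49 bases before the start, in NFKBIB 28 bases before, and in REL it lay on the other strand from 46 bases before, overlapping a match on the gene's strand. NFKB2 held 4 matches in its second window and 3 in its last, where a sequence that fitted both strands was counted on each. In the second window GGGAATTCCC fitted both strands from 107 bases before the start, and other matches began 106 and 78 bases before. In the last window GGGGCTTCCC fitted both strands from 176 bases before the start, and GGGACTTTCC began 21 bases before. The consensus was in no window of RELA (2 windows). The member windows were 51.3% to 80.0% G and C, against a median of 58.67% over all windows, and base composition bears on how often the consensus occurs. A match describes a sequence, and no binding was measured here.

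**Figure D1:**
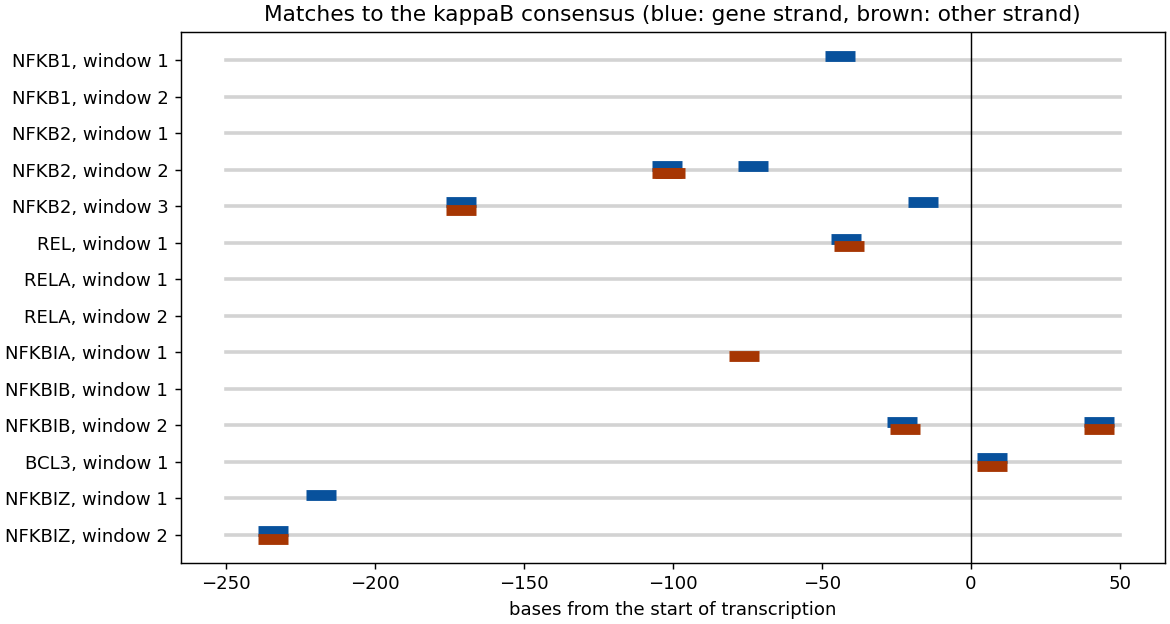
Position of each kappaB consensus match (bars) in 14 RefSeq promoter windows of 8 member genes, in bases from the start of transcription (vertical line). Blue bars are matches on the gene's strand and brown bars matches on the other strand, and 9 of the 14 windows hold at least 1.

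The arrays were alike in overall signal, with medians from 5.46 to 5.73 and 42.2% to 42.9% of probe sets at or above a signal of 16, which served as the floor below which no fold is given. One array stood apart. The 3' probe set of ACTB was 7.22 times as bright as the 5' one on replicate 2 of 786-O with myoblasts, while elsewhere this ratio was 3.08 to 4.24. For GAPDH the same ratio was 1.84 there and 1.07 to 1.29 elsewhere. It gave the highest signal of its group for 7 of the 10 members and the lowest for the other 3, and its part in the results was not tested beyond the values without it that are given below. Of the markers of each line, PAX8 averaged 761.8 in 786-O alone and 15.9 in PC3 alone, and HOXB13 4.26 and 299.3. KLK3 and KLK2, defining prostate genes, were under the floor on all arrays, and CA9, a renal carcinoma marker, was under it in 786-O. All 8 skeletal myoblast markers lay under 16 on all arrays, with a summed signal of 36.2 to 41.2 over all groups, and so did CD14 and PTPRC of the 3 macrophage markers on the array. The other, CSF1R, reached 17.3 on replicate 3 of 786-O with myoblasts and lay between 4.20 and 5.77 on all other arrays, and its part in the results was not tested. The probe sets are of human sequence and the myoblasts were mouse cells, so low marker signals cannot show whether mouse RNA was present.

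With myoblasts, 4 of the 10 members rose in 786-O (BCL3, NFKBIZ, NFKB2 and NFKBIA) and 3 in PC3 (NFKBIZ, BCL3 and NFKBIA). By limma 0 fell in either line on the probe sets used in the test, also at an unadjusted p under 0.05. On another probe set RELA was lower in 786-O (limma unadjusted p = 0.00945), without passing after adjustment (adjusted p = 0.076). Over all genes tested, 12.0% were called in 786-O and 5.70% in PC3, at an adjusted p under 0.05. Genes called higher made up 8.08% and 3.19% of all genes, and genes called lower 3.90% and 2.51%. The median log2 difference of the members was 0.16 in 786-O and 0.28 in PC3, against 0.02 and 0.00 over all genes. The 786-O median lies midway between NFKB1, at 0.12, and NFKBIE, at 0.21. Without replicate 2 of 786-O with myoblasts these were -0.07 and -0.004, so this median rests in part on the array that stood apart. The PC3 median lies midway between NFKB2, at 0.08, and RELB, which was under the floor on all arrays, so it rests in part on an unmeasured gene. Arrays with and without myoblasts did not overlap for 5 of the 10 members in each line, against 35.3% of all genes in 786-O and 27.3% in PC3. In 786-O 4 of these were higher with myoblasts, and RELA was lower. In PC3 all 5 were higher, among them RELB, under the floor on all arrays, and REL, above it on 1 PC3 array. Fewer cells of a kind and less RNA per cell cannot be told apart in such bulk RNA. The labels do not say that the 3 arrays of a group were grown separately, and p-values then cover the spread between these arrays alone, which may be technical.

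**Figure D2:**
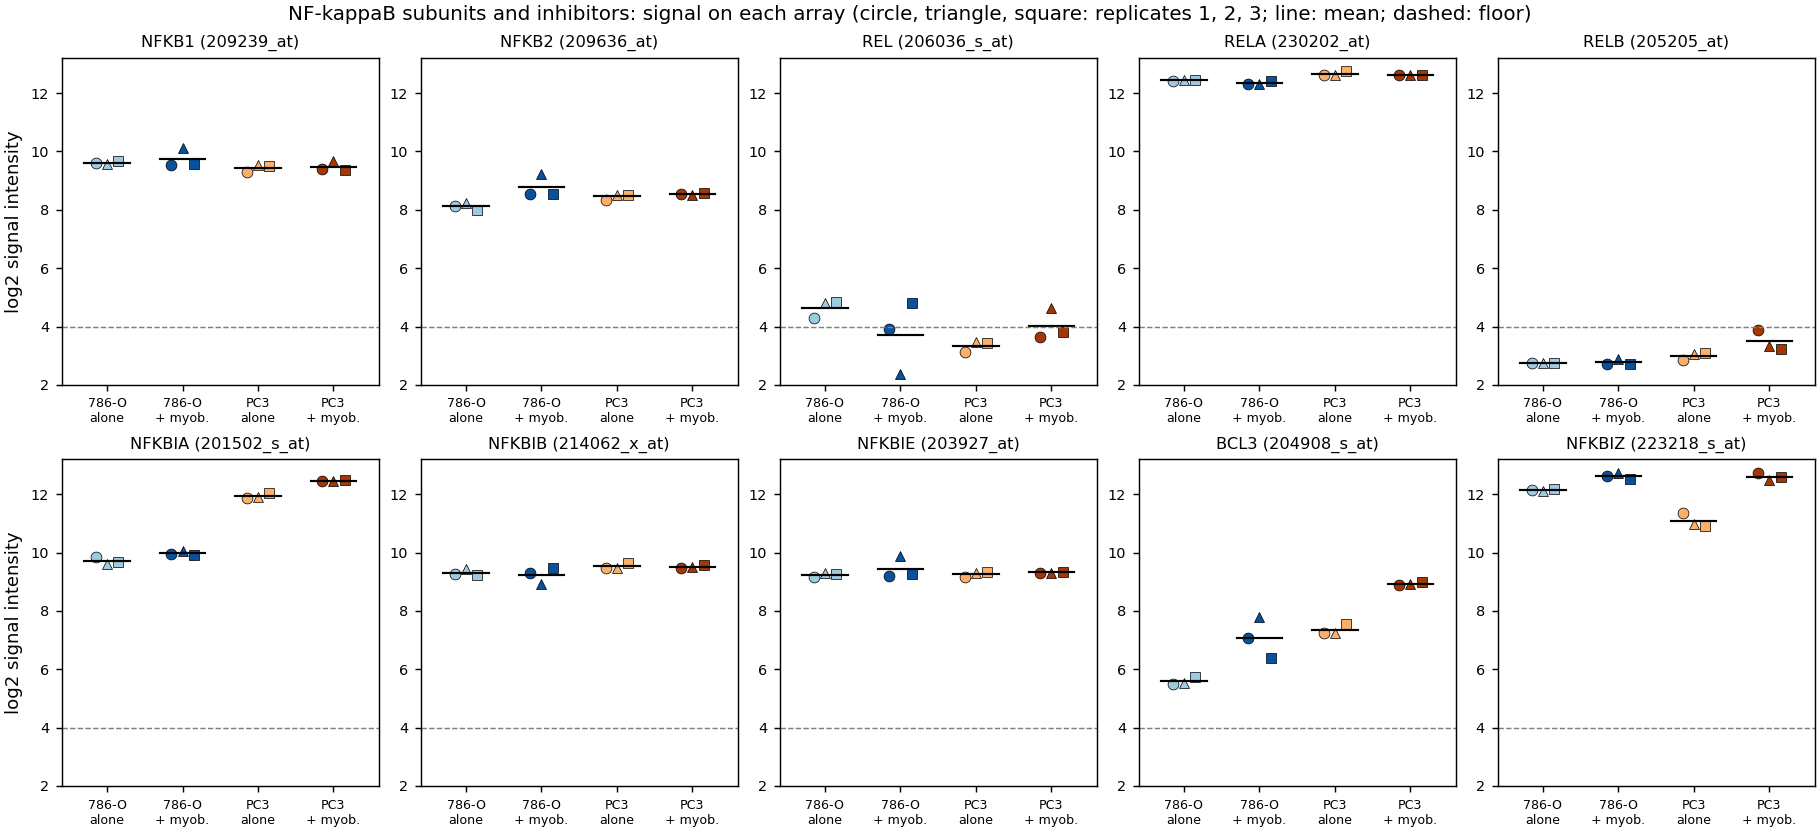
Log2 signal intensity of the 10 members on each of 12 arrays, for the probe set used in the test (named above each panel), by group. Circles, triangles and squares are replicates 1, 2 and 3, black lines are group means, and the dashed line is the floor, a log2 signal of 4. BCL3, NFKBIA and NFKBIZ were higher on every array with myoblasts than on every array of the same line alone, and RELB lay under the floor on all arrays.

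BCL3, the nuclear IkappaB protein that partners p50 and p52, had the largest log2 difference in both lines among the probe sets used in the test. Its signals in 786-O alone were 44.8, 46.2 and 53.4, and with myoblasts 133.04, 223.3 and 84.3. In PC3 alone they were 152.8, 151.5 and 188.8, and with myoblasts 469.2, 482.7 and 509.3. Every array with myoblasts lay above every array alone in the same line, and in 786-O the co-cultured arrays were far apart from one another. The log2 difference was 1.50 ± 0.27 in 786-O (SE, n = 3 per group, limma adjusted p = 0.0064), which is 2.83-fold, and 1.57 ± 0.27 in PC3 (adjusted p = 0.00441), which is 2.98-fold. Without replicate 2 of 786-O with myoblasts the 786-O value was 1.14 ± 0.19 (adjusted p = 0.00377). The call in 786-O was lost when only the 2 groups compared entered the fit (adjusted p = 0.0991). A second probe set of BCL3 was under the floor on all arrays.

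NFKBIZ encodes IkappaB-zeta, a nuclear co-activator induced by interleukin 1 and Toll-like receptor signals. On the probe set used in the test, the brighter of 2 above the floor, its signals in PC3 alone were 2617, 1994 and 1940, and with myoblasts 6698, 5715 and 6109. In 786-O alone they were 4547, 4379 and 4657, and with myoblasts 6341, 6817 and 5845. The groups were apart within each line, and the co-cultured arrays of both lines overlapped. The log2 difference was 1.51 ± 0.11 in PC3 (adjusted p = 6.66e-06), which is 2.85-fold, and 0.48 ± 0.11 in 786-O (adjusted p = 0.0164), which is 1.40-fold. The 786-O call was lost without replicate 2 of 786-O alone (adjusted p = 0.0656).

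The dimmer probe set of NFKBIZ gave 48.2, 52.0 and 55.2 in 786-O alone and 167.8, 114.3 and 208.6 with myoblasts. In PC3 it gave 17.7, 12.8 and 9.32 alone, of which 2 were under the floor, and 39.9, 71.2 and 42.0 with myoblasts. It too was higher on every array with myoblasts in both lines. The log2 difference was 1.62 ± 0.30 in 786-O (limma adjusted p = 0.0105, over 22800 probe sets, of which 8.74% were called) and 1.94 ± 0.30 in PC3 (adjusted p = 0.0031, with 4.23% called). The rise in 786-O was thus 1.40-fold on one probe set and 3.07-fold on the other. The remaining probe set, which aligns 20774 bases upstream of the brighter one per the deposited annotation, was under the floor on all arrays.

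NFKBIA encodes IkappaB-alpha, the inhibitor that NF-kappaB induces to switch itself off. Its signals in PC3 alone were 3746, 3865 and 4215, and with myoblasts 5658, 5559 and 5713. In 786-O alone they were 912.8, 780.8 and 822.5, and with myoblasts 984.5, 1074 and 962.3. The groups did not overlap in either line, but the gap in 786-O was narrow. NFKBIA rose in PC3 by a log2 value of 0.52 ± 0.08 (adjusted p = 0.00147), or 1.43-fold, and in 786-O by 0.27 ± 0.08 (adjusted p = 0.0432), or 1.20-fold. The 786-O call was lost without replicate 1 or 2 of 786-O with myoblasts, 2 or 3 of 786-O alone, 1, 2 or 3 of PC3 with myoblasts, or 2 of PC3 alone, with adjusted p from 0.0611 to 0.153, and without the array that stood apart it was 0.22 ± 0.07 (adjusted p = 0.0751). It was also lost after quantile normalization (0.0548), after centring on the median (0.0697), without a filter (0.0545), with the ACTB ratio as a covariate (0.0626) and in a fit of only the 2 groups (0.194).

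The other classical inhibitors did not pass the test. NFKBIB, or IkappaB-beta, which responds more slowly than IkappaB-alpha, read 608.7, 688.1 and 598.9 in 786-O alone and 631.2, 488.2 and 708.8 with myoblasts, and its groups overlapped. In PC3 it read 707.3, 716.4 and 801.3 alone and 707.9, 726.1 and 757.3 with myoblasts, again overlapping. The log2 differences were -0.07 ± 0.13 (adjusted p = 0.784) in 786-O and -0.02 ± 0.13 (adjusted p = 0.995) in PC3, and its other 2 probe sets were not called either. For NFKBIE, or IkappaB-epsilon, another inhibitor that is an NF-kappaB target, 786-O signals were 567.4, 633.0 and 610.0 alone and 593.1, 933.4 and 609.3 with myoblasts. Only the array that stood apart was high. PC3 signals of NFKBIE lay between 573.4 and 650.2 in both groups, and its log2 difference was 0.21 ± 0.15 in 786-O (adjusted p = 0.382) and 0.05 ± 0.15 in PC3 (adjusted p = 0.957).

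Among the subunits NFKB2, the precursor p100 from which p52 of the alternative pathway is cut, rose in 786-O. Its signals were 280.9, 302.5 and 252.0 in 786-O alone and 372.6, 600.4 and 369.0 with myoblasts, and 323.1, 368.0 and 368.1 in PC3 alone and 369.1, 367.8 and 377.1 with myoblasts. In 786-O the groups were apart, and in PC3 they overlapped. The log2 difference was 0.65 ± 0.17 in 786-O (adjusted p = 0.032), or 1.57-fold, and 0.08 ± 0.17 in PC3 (adjusted p = 0.916). Without replicate 2 of 786-O with myoblasts the 786-O value was 0.42 ± 0.11 (adjusted p = 0.0294). Leaving out any 1 array of 786-O alone ended the call (adjusted p = 0.0786, 0.0685 and 0.117 without replicates 1, 2 and 3), as did leaving out replicate 1 of PC3 with myoblasts (0.0508), the absence of a filter (0.0655) and a fit of only the 2 groups (0.171). The other 2 probe sets of NFKB2 were under the floor on all arrays.

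NFKB1, which encodes p105 and its product p50, gave 780.3, 765.9 and 812.4 in 786-O alone and 739.1, 1104 and 757.3 with myoblasts. In PC3 it gave 621.7, 747.3 and 723.2 alone and 679.5, 811.9 and 655.6 with myoblasts. The groups overlapped in both lines, and the log2 difference was 0.12 ± 0.15 in 786-O (adjusted p = 0.653) and 0.04 ± 0.15 in PC3 (adjusted p = 0.979). RELA, the transactivating subunit p65, gave 5497, 5568 and 5633 in 786-O alone and 5091, 5067 and 5462 with myoblasts on its brightest probe set. All 3 co-cultured arrays were the lower ones, with a log2 difference of -0.10 ± 0.05 that did not pass the test (adjusted p = 0.221). In PC3 RELA read 6292, 6260 and 6952 alone and 6250, 6348 and 6326 with myoblasts, overlapping, with a difference of -0.04 ± 0.05 (adjusted p = 0.773). Per the deposited annotation this probe set aligns to the plus strand, while RELA lies on the minus strand in RefSeq and the other 2 probe sets align to it, so whether these values are of the RELA transcript was not tested. On the next brightest of RELA the 786-O difference was -0.18 ± 0.06 (limma unadjusted p = 0.00945, adjusted p = 0.076 over all probe sets). Its 786-O groups were apart, at 4161 to 4359 with myoblasts and 4757.5 to 4954 alone. On the dimmest probe set the 786-O difference was -0.26 ± 0.22 (adjusted p = 0.486).

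The remaining subunits were near or under the floor. REL, the c-Rel subunit best known from lymphocytes, read 19.7, 27.7 and 28.6 in 786-O alone and 14.96, 5.22 and 27.7 with myoblasts, and its other probe set was under the floor on all arrays. In PC3 it read 8.68, 11.1 and 10.9 alone and 12.6, 24.6 and 13.9 with myoblasts. The groups overlapped in 786-O and were apart in PC3, where all arrays but replicate 2 with myoblasts were under the floor. REL was not called in either line (adjusted p = 0.209 and 0.534). It was called in 786-O without replicate 3 of 786-O with myoblasts (log2 difference -1.50, adjusted p = 0.0297) and in PC3 with the ACTB ratio as a covariate (0.83, adjusted p = 0.0179). RELB, the partner of p52 in the alternative pathway, has 1 probe set, whose highest signal on any array was 14.7, so no fold is given. Its fitted log2 differences were not called (adjusted p = 0.949 in 786-O and 0.167 in PC3).

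**Figure D3:**
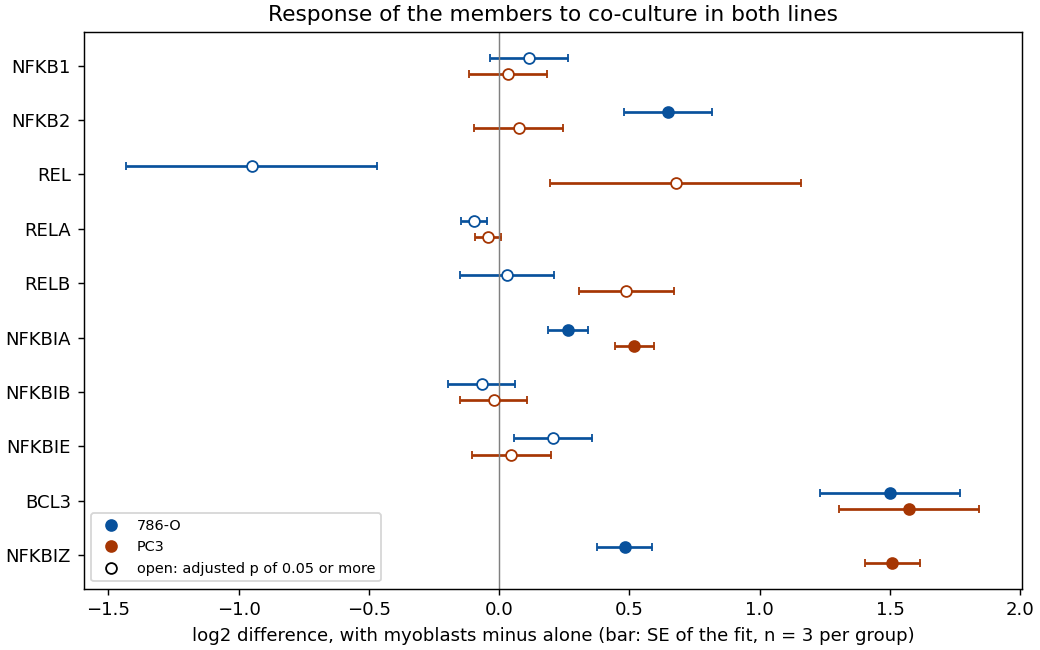
Log2 difference of each member between cultures with myoblasts and alone (dots, horizontal axis) in 786-O (blue) and PC3 (brown), with the SE of the fit as bars (n = 3 arrays per group). Filled dots had an adjusted p under 0.05. BCL3 lay near 1.5 in both lines, while NFKBIZ lay at 0.48 in 786-O and 1.51 in PC3.

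The responses of both lines were compared with each other, member by member. NFKBIZ rose less in 786-O than in PC3, with a difference of the log2 responses of -1.03 ± 0.15 (adjusted p = 0.00246), and it was the 1 member of 10 that differed, against 5.97% of all genes (2.57% lower and 3.40% higher in 786-O). That result rested on the brighter probe set: on the dimmer one the difference was -0.32 ± 0.42 (adjusted p = 0.694, with 4.22% of all probe sets called), and with the mean of both probe sets -0.67 (adjusted p = 0.105). For BCL3 the difference was -0.07 ± 0.38, with a 95% interval from -0.91 to 0.76, and without replicate 2 of 786-O with myoblasts it was -0.43 ± 0.25 (adjusted p = 0.286). NFKBIA differed by -0.25 ± 0.11 (interval -0.49 to -0.02, adjusted p = 0.181) and NFKB2 by 0.57 ± 0.24 (interval 0.05 to 1.10, adjusted p = 0.178). Neither passed the test, so the rise of NFKB2 was called in 786-O without being shown to differ from PC3. REL differed by -1.63 ± 0.68 near the floor (adjusted p = 0.178), and was called without replicate 3 of 786-O with myoblasts (-2.18, adjusted p = 0.037) and with the ACTB ratio as a covariate (-1.05, adjusted p = 0.0299).

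**Figure D4:**
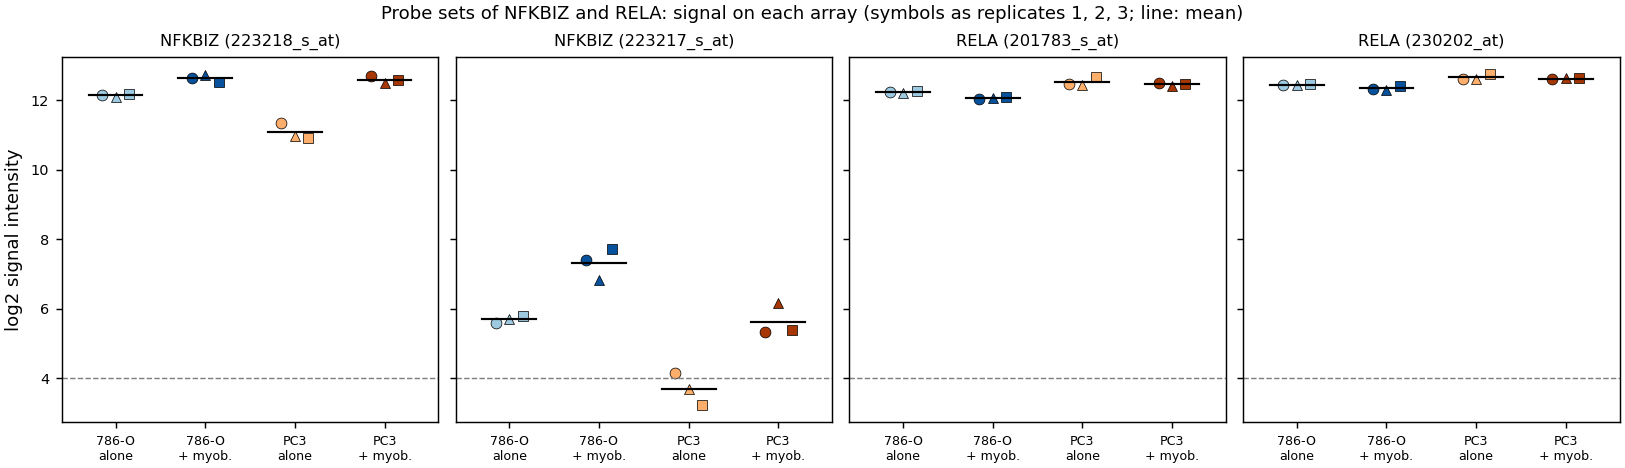
Log2 signal intensity on each of 12 arrays for the brighter (first panel) and the dimmer (second panel) NFKBIZ probe set and for the next brightest and the brightest RELA probe set, by group. Symbols are replicates 1, 2 and 3, black lines are means, and the dashed line is the floor. Co-cultured 786-O and PC3 overlap on the brighter NFKBIZ probe set and are apart on the dimmer one.

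NFKBIA and BCL3 had the largest log2 differences between the lines, both alone and with myoblasts. Alone, 5 of 10 members differed between 786-O and PC3, 2 higher and 3 lower in 786-O, and with myoblasts 4 were lower and 0 higher, also at an unadjusted p under 0.05. Over all genes, 37.0% were called higher and 37.9% lower alone, and 38.5% higher and 37.6% lower with myoblasts. NFKBIA was 4.70-fold lower in 786-O than in PC3 alone (log2 difference -2.23 ± 0.08, adjusted p = 6.19e-11) and 5.61-fold lower with myoblasts (-2.49 ± 0.08, adjusted p = 2.11e-11). In rising order its groups were 786-O alone, 786-O with myoblasts, PC3 alone and PC3 with myoblasts, with no overlap between neighbours. BCL3 was 3.41-fold lower in 786-O alone (-1.77 ± 0.27, adjusted p = 7.28e-05) and 3.59-fold lower with myoblasts (-1.84 ± 0.27, adjusted p = 5.18e-05). Its order was the same, but the arrays of 786-O with myoblasts (84.3 to 223.3) overlapped those of PC3 alone (151.5 to 188.8).

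NFKBIZ went the other way among cells grown alone. On the brighter probe set it was 2.09-fold higher in 786-O (log2 difference 1.07 ± 0.11, adjusted p = 1.67e-06), and with myoblasts the difference was 0.04 ± 0.11 (interval -0.19 to 0.27, adjusted p = 0.761). Its order was PC3 alone, 786-O alone, and then both co-cultures, which overlapped. On the dimmer probe set 786-O was higher in both settings, by 2.01 ± 0.30 alone and 1.69 ± 0.30 with myoblasts (adjusted p = 7.88e-05 and 0.000308 over all probe sets, of which 70.2% and 72.0% were called), so the probe sets disagreed on the co-cultured lines.

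The RELA probe set on the plus strand was slightly lower in 786-O, by 1.17-fold alone (-0.22 ± 0.05, adjusted p = 0.00162) and 1.21-fold with myoblasts (-0.28 ± 0.05, adjusted p = 0.000313), and the next brightest probe set, on the strand of the gene, gave -0.29 ± 0.06 and -0.40 ± 0.06. REL was at least 1.56-fold higher in 786-O alone than in PC3 alone, whose arrays were all under the floor (adjusted p = 0.0276). That call was lost without replicate 2 or 3 of 786-O alone or 1 or 3 of PC3 alone (adjusted p from 0.0516 to 0.0782). RELB was called lower in 786-O with myoblasts (adjusted p = 0.00315) on signals that were all under the floor. NFKB1, NFKB2, NFKBIB and NFKBIE were not called between the lines in either setting. Without replicate 2 of 786-O with myoblasts 7 of 10 members differed between the lines alone, against 10006 of all 12502 genes. NFKB2 (-0.34, adjusted p = 0.006) and NFKBIB (-0.23, adjusted p = 0.0279) were those added. On the other probe sets of NFKBIB, with all arrays in the fit, that difference had the opposite sign (0.03 and 0.09) and was not called.

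Other genes of the pathway were read from lists of upstream components and targets. The counts below stand beside shares over all genes of 8.08% higher and 3.90% lower in 786-O, and 3.19% higher and 2.51% lower in PC3. Of 11 IKK subunits and upstream kinases, 2 rose in 786-O and 1 in PC3, with median log2 differences of 0.24 and 0.02. IKBKB, the catalytic IKK subunit of the classical pathway, rose by 0.54 ± 0.14 in 786-O (adjusted p = 0.0302), as did TBK1, a related kinase, by 0.33 ± 0.09 (adjusted p = 0.0386). MAP3K8, a kinase held by p105, was at least 1.14-fold higher in PC3 with myoblasts, since PC3 alone was under the floor (adjusted p = 0.00302). Of 16 tested adaptors and ubiquitin ligases, 1 rose and 1 fell in 786-O (medians 0.09 and, in PC3, 0.03) and 1 rose in PC3. RBCK1, a part of the linear ubiquitin ligase, had a log2 difference of 0.32 ± 0.06 in 786-O, BIRC2, the ligase cIAP1, had -0.49 ± 0.08, and IRAK2, an adaptor kinase of interleukin 1 and Toll-like receptors, had 0.45 ± 0.06 in PC3.

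Of 9 tested deubiquitinases and other brakes, 1 rose in 786-O, and in PC3 2 rose and 1 fell, with medians of 0.17 and -0.02. ZC3H12A, an RNase that destroys cytokine mRNAs, rose by 2.01 ± 0.22 in PC3 (adjusted p = 0.00019). Its mean log2 signal in PC3 alone was 4.02, near the floor of 4, so the size of this rise is uncertain. TNIP1, which binds the deubiquitinase A20, rose in both lines, by 0.36 ± 0.07 in 786-O and 0.52 ± 0.07 in PC3, and CYLD, a deubiquitinase, fell by 0.61 in PC3 (adjusted p = 0.00688). TNFAIP3, which encodes A20, was not called in either line. Of 12 receptors tested, 1 rose and 1 fell in 786-O and 1 rose in PC3, with medians of 0.07 and 0.09, against the same shares over all genes (8.08% higher and 3.90% lower in 786-O, and 3.19% higher in PC3). These were IL1R1, the interleukin 1 receptor, with 0.98 ± 0.18, and TNFRSF21, a death receptor, with -0.55 ± 0.10 in 786-O, and IL18R1, the interleukin 18 receptor, with 0.77 ± 0.15 in PC3.

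Of 20 classic target genes tested, 7 rose in 786-O and 11 in PC3, with median log2 differences of 0.18 and 0.62. The 786-O median counts SERPINB2, CCL20, IL1A and IL1B, which lay under the floor on all arrays of 786-O. The PC3 median counts VCAM1 and CCL2, which lay under it on all arrays of PC3. These medians therefore do not compare the size of the response over the same measured genes. By limma 0 fell in either line (1 in 786-O and 0 in PC3 at an unadjusted p under 0.05). In 786-O the smallest p-values belonged to CXCL1, a neutrophil chemokine (2.18 ± 0.16), PLAU, the urokinase (0.95 ± 0.14), ICAM1, an adhesion molecule (0.52 ± 0.09), and CXCL8, or interleukin 8 (0.56 ± 0.11). In PC3 they belonged to CXCL2 (2.15 ± 0.17), IL1A, which was at least 4.27-fold higher, CXCL3 (2.45 ± 0.21) and IER3 (0.48 ± 0.04). The response was smaller in 786-O than in PC3 for 8 of the 20 targets and larger for 0 (10 and 2 at an unadjusted p under 0.05), against 2.57% and 3.40% of all genes. Of those 8, CCL20, IL1A and IL1B were under the floor on all 786-O arrays, so their response in 786-O was not measured. Of the 25 listed targets, TNF, LTB, TRAF1, PTGS2 and MMP9 were not tested for dim signal.

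**Figure D5:**
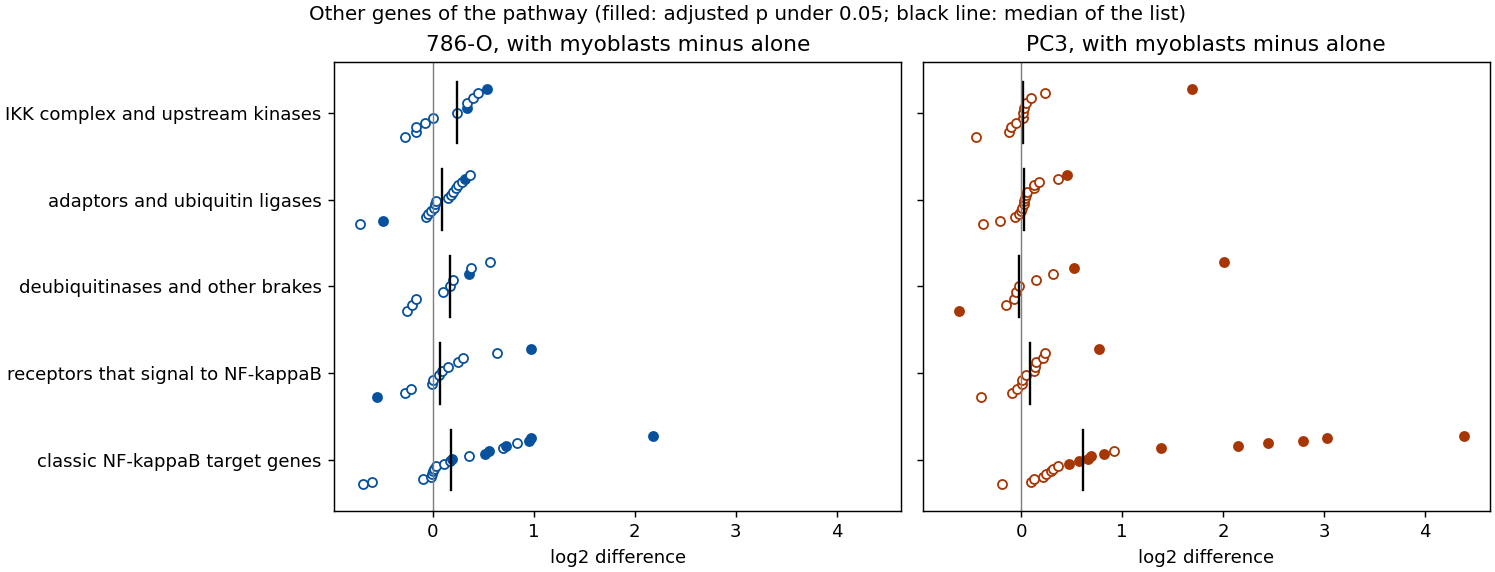
Log2 differences between cultures with myoblasts and alone for the tested genes of 5 lists, in 786-O (left) and PC3 (right). Each dot is a gene, filled where the adjusted p was under 0.05, and black lines are list medians. Target genes reach the highest values in both panels, and their median is 0.18 in 786-O and 0.62 in PC3. Genes under the floor on all arrays of a line are included in its dots and medians.

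For the 3 members with the widest range of group means, the genes with the most similar pattern were found by the root mean square difference of centred log2 signals over the 12 arrays. For BCL3, whose group means spanned 3.34, they were CDK18 (0.33), SLC22A23 (0.43) and MATN1-AS1 (0.44). NFKBIA, with a span of 2.75, was followed by ATP9A (0.12), TSC22D1 (0.13) and CTSH (0.15). The nearest to NFKBIZ, with a span of 1.55, were SHISA2 (0.26), MIR21 (0.29) and PLPP4 (0.30).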

How the data were processed

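Expression was measured in 12 samples, 3 arrays in each of 4 groups taken from the titles. The values are the authors' deposited intensities on a linear scale, and MAS5 is named, without a version, per the submitters' processing notes. The authors' deposited table also holds a signed fold-change score and a p-value for each pair of groups, which are not quoted here. Control probe sets (62) and probe sets with no symbol (13166) or several (1522) were left out, which left 39925. Gene identifiers of 96.5% of these were found in the RefSeq gene table, and 7383 symbols were updated from it.

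Intensities were taken to log2 with no constant. Probe sets with a mean above 2.65, which is that of the median probe set, were kept, and the brightest one stood for its gene. One limma model (version 3.58.1, in R 4.3.3) covered all 4 groups and gave 5 contrasts, with eBayes set to follow the intensity trend. P-values are two-sided, with Benjamini-Hochberg adjustment over all 12502 genes, and an adjusted p under 0.05 was called. Errors are standard errors of this model, whose precision the number of arrays limits. Each gene has 1 spread for all 4 groups, while 786-O with myoblasts varied more between arrays than the other groups (SD of deviations 0.199 to 0.338, against 0.138 to 0.174). A signal of 16 was taken as the floor with the data known. A group with no array at or above it gives only a bound on a fold.

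The members, lists and markers were chosen with earlier results of these data known. Genes named are all 10 members, up to 4 genes with the smallest p of each list and contrast, and the 3 genes most similar to each of 3 members. The fit was tested on simulated data. Alternatives were other normalizations, filters, an added constant, variance models, probe set choices, the ACTB ratio as a covariate, a replicate block, a fit of only the groups compared, and the omission of each array. Promoters were RefSeq windows of GRCh38.p14, searched on both strands for the kappaB consensus with Python 3.11.15, and figures were drawn with matplotlib 3.10.9.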

Additional observations from a re-analysis of the deposited data

Results flagged for a closer look

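The response to myoblasts differed between the lines for 15 genes of the group and its pathway lists, by the limma test of the difference. That difference is the log2 response of 786-O minus that of PC3. Of these genes, 12 were not under the floor on all arrays of either line. Lower in 786-O were 8 of 20 targets, 1 of 10 members, 1 of 16 adaptors and ligases, 1 of 9 brakes and 1 of 12 receptors. Higher were 1 of 11 kinases, 1 of 9 brakes and 1 of 12 receptors. Over all genes, 2.57% were lower and 3.40% higher. NFKBIZ was the 1 member, with -1.03 ± 0.15. Lower values in 786-O were also found for the targets IL6 (-2.10), CXCL3 (-1.47), CXCL2 (-1.42), SOD2 (-0.57) and IER3 (-0.29), for ZC3H12A (-1.44) and TNFRSF21 (-0.69), and for IRAK2 (-0.42). Higher values in 786-O were found for IL1R1 (1.38), IKBKB (0.99) and CYLD (0.71). The other 3 were CCL20, IL1A and IL1B, which lay under the floor on all arrays of 786-O, and IL1A also on those of PC3 alone, so no size of the difference is given. IL1R1 lay near the floor, a log2 signal of 4, in PC3 (means 4.01 with myoblasts and 4.41 alone). ZC3H12A lay near it in PC3 alone (4.02) and 786-O alone (4.48). The sizes of these 2 differences are therefore uncertain. SOD2, VCAM1, CCL2 and SERPINB2 fall outside the rule for named genes and were chosen after their values were seen.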

How the results depend on the processing

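Of 1150 recomputed values of single members, 1109 kept their direction and side of the threshold, 28 lost a call, 13 gained one, 0 reversed, and 37 values without a call changed sign. The calls of BCL3, NFKBIZ and NFKBIA in PC3 and of NFKBIA and BCL3 between the lines kept their side under all alternatives in which the gene was tested. Members called in the 786-O response numbered 4. They numbered 2 without a filter, 2 with the filter at the 75th percentile (6 members tested) and 1 with only the groups compared. They numbered 1 without probe sets ending in _x_at or _s_at (6 members tested). That choice left BCL3, NFKBIA, NFKBIZ and REL with no probe set above the filter, so these genes were not tested in it. The PC3 count was 3, and it was 0 without _x_at and _s_at, where no gene called in PC3 was tested. For the difference of the responses it was 1, with 0 for the mean of the probe sets and 2 with the ACTB covariate. It was 0 without _x_at and _s_at, where NFKBIZ was not tested. Between the lines alone it was 5, with 3 at the 75th percentile and 1 without _x_at and _s_at, and with myoblasts 4, with 2 and 2. Each of these lower counts came with 6 members tested. Omission of single arrays gave 1 to 5 in 786-O, 3 to 3 in PC3, 1 to 2 for the difference, 4 to 7 between the lines alone and 4 to 5 with myoblasts. In 786-O the lowest count came without replicate 2 of 786-O alone and the highest without replicate 3 of 786-O with myoblasts. Over all genes, calls in 786-O (1498) fell to 175 with only the groups compared and 963 without a filter, and were 536 to 2522 without single arrays. PC3 calls (713) were 1385 with the ACTB covariate, 419 at the 75th percentile and 434 to 1314 without single arrays. Calls of the difference (746) were 1888, 478 and 395 to 1314 likewise, and those between the lines (9372 and 9522) were 6157 and 6223 at the 75th percentile, where 8044 genes were tested. Replicate numbers did not pair the arrays (correlations of deviations -0.13 to 0.11), and the replicate block gave 3, 3, 1, 5 and 4 members in the order of contrasts above, with the NFKBIA call in 786-O lost (adjusted p = 0.0772). The causes were not tested. Signals near or under the floor limit what can be said of REL, RELB and the dim probe sets.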
